A study of Mus musculus with 24 samples.

Results

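The genes described here are 10 nucleolar genes that make ribosomes or build their parts, measured in mouse brain on 2 Affymetrix arrays of different content (A and B below). The members were chosen by gene symbol, and the platform annotation gave 15 probe sets naming 1 of them alone, 9 on array A and 6 on array B, out of 13674 genes named in the same way over both arrays. Fbl entered the set because it had one of the lowest p-values outside the trisomic chromosome segment in an earlier comparison of the genotypes. Urb1 entered because it lies in that segment. The differences between genotypes given for the members are therefore a description and support nothing.

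Brain RNA of 2N mice, with no extra chromosome material, was compared with brain RNA of Ts1Cje mice, a mouse model of Down syndrome. Ts1Cje mice carry an extra copy of the distal part of mouse chromosome 16, attached to chromosome 12, so that the genes of this part are present in 3 copies in place of 2, and Sod1 at its edge is disrupted on the extra copy. There were 6 samples of each genotype on each array design, numbered 1 to 6. The labels give no brain region, age, sex or strain for either genotype, and nothing in them ties a sample to an animal of its own, so errors and p-values describe only the spread among these samples, which may be technical.

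The nucleolus is the part of the nucleus where ribosomal RNA is transcribed by RNA polymerase I, cut, chemically modified and packed with ribosomal proteins. Small nucleolar RNAs guide the modifications: those of the box C/D class direct methylation of ribose by fibrillarin, and those of the box H/ACA class direct the change of uridine to pseudouridine by dyskerin. Neurons are large cells with prominent nucleoli, and dividing progenitors also make many ribosomes.

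Of the 15 probe sets, 13 were bright enough to be compared, at least 1 for each of the 10 genes. None passed the threshold (limma, Benjamini-Hochberg adjusted p under 0.05 over all probe sets of the array). Over all probe sets, 0.0966% passed on array A (9 probe sets) and 0.0645% on array B (6). The number on array B was 1 without 2N replicate 5, Ts1Cje replicate 1 or Ts1Cje replicate 2, and 3 without 2N replicate 6. Without the mean-variance trend it was 0 on array B and 2 on array A. An unadjusted p under 0.05 was reached by 2 of 8 member probe sets on array A, those of Fbl and Pum3, where 3.63% of all tested probe sets reached it. On array B it was reached by 1 of 5, that of Urb1, where 4.24% of all did. After normalisation the samples of the genotypes did not overlap for 1 member probe set, that of Pum3 on array A. Such separation was found for 0.301% of all tested probe sets on array A and 0.247% on array B. Since the genotype difference helped to choose the members, nothing is read from these shares.

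**Figure D1:**
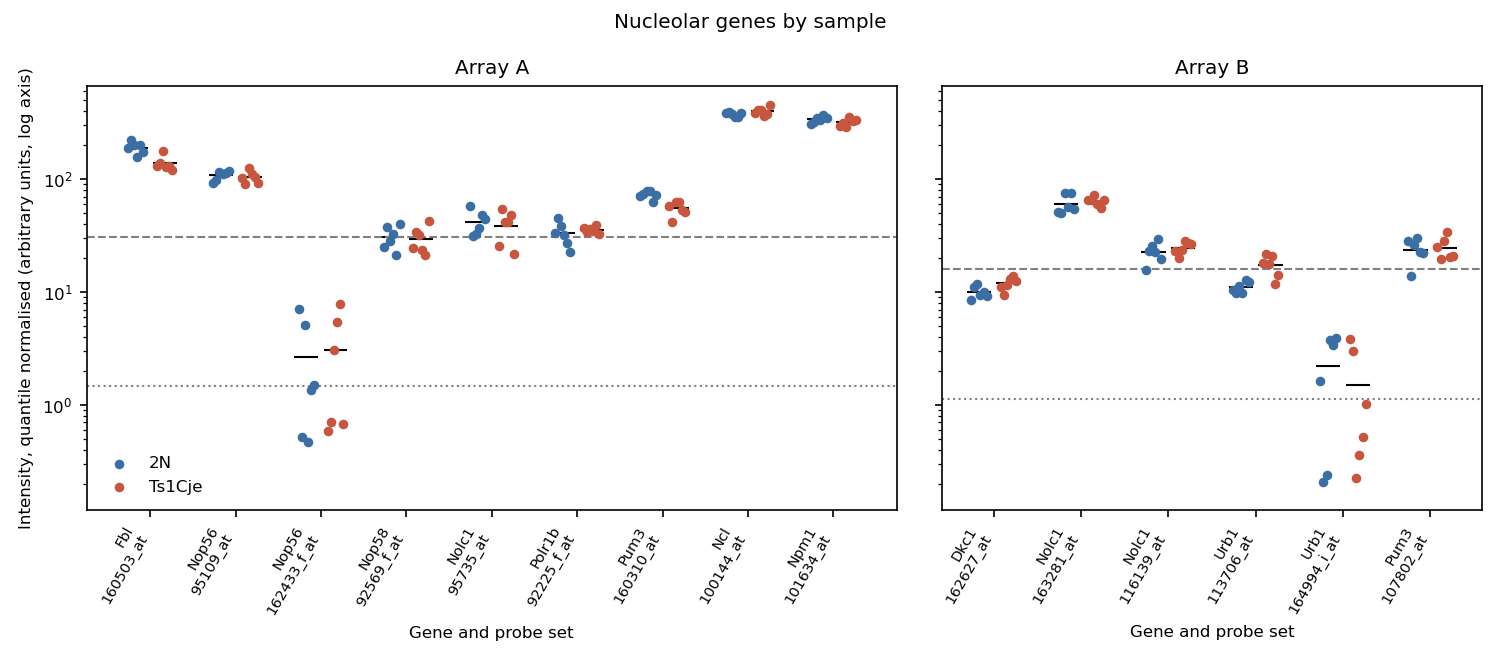
Quantile-normalised intensity (log axis, arbitrary units) of each of the 15 probe sets by sample; blue points are the 6 samples of 2N, red points the 6 of Ts1Cje, black bars the means, the dashed line the median intensity of tested probe sets and the dotted line the floor. Fbl and Pum3 on array A lie lower in Ts1Cje and Urb1 113706_at on array B lies higher, while the points of most other probe sets intermingle.

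Fbl encodes fibrillarin, the methyltransferase of the box C/D particles. Its single probe set, on array A, had an intensity of 158 in the lowest, 194 in the median and 222 in the highest 2N sample. In Ts1Cje the lowest sample was at 121, the median at 131 and the highest at 178. Of the 6 Ts1Cje samples, 5 lay below all 2N samples, and the remaining one, replicate 3, lay within the range of 2N. Mean intensities were 190.4 ± 22.5 (SD, n = 6) among 2N samples and 138 ± 20.5 (SD, n = 6) among those of Ts1Cje. The log2 difference was -0.47 (SE 0.10, 95% interval -0.69 to -0.25), or 0.722-fold, and its limma adjusted p of 0.19 did not pass. By unadjusted p it ranked 13 of 9316 tested probe sets, and the probe sets ahead of it include the 9 that passed. By size it did not stand out among all tested probe sets of array A: 482 had a difference at or below it. These include dim and more variable probe sets. The SD of the log2 values within genotypes was 0.19 for Fbl, where the median of tested probe sets was 0.31. Without Ts1Cje replicate 3 the difference was -0.55 and passed (adjusted p = 0.024). Across the 12 fits with 1 sample left out it ran from -0.55 to -0.42, with an adjusted p of up to 0.56. In bulk tissue, fewer cells of a type and less RNA per cell cannot be told apart.

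Replicates 1 and 2 of both genotypes lay apart from replicates 3 to 6 on the first principal component of both arrays, a split that was found in the data and is in no label. The Fbl difference had the same direction in both parts. This adds no support, since Fbl was chosen by its low p-value in an earlier comparison of the genotypes. It was -0.60 between replicates 1 and 2 of the genotypes and -0.41 between replicates 3 to 6. Before normalisation the deposited Fbl intensities ran from 121.4 to 258.7 in 2N and from 73.2 to 184.1 in Ts1Cje, and without normalisation between arrays the difference was -0.54 (adjusted p = 0.9999).

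**Figure D2:**
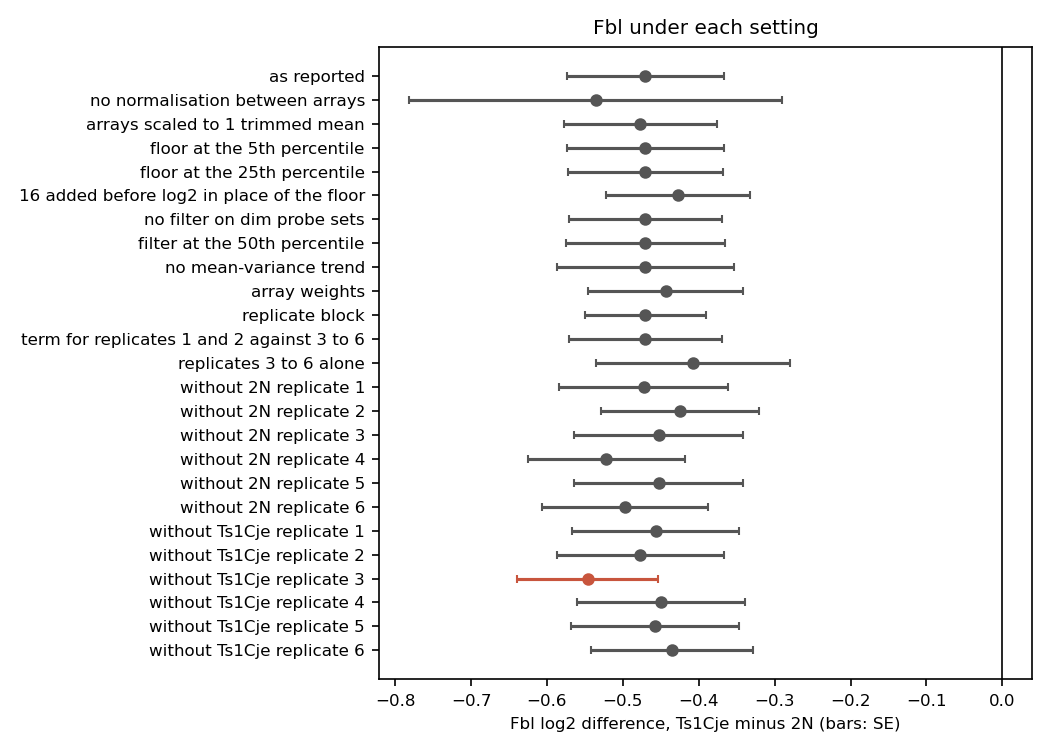
Log2 difference of Fbl on array A (Ts1Cje minus 2N, bars show SE) as reported and under each of the 24 other settings; the red point is the setting under which the adjusted p passed. All points lie between -0.55 and -0.41, and the difference passed only without Ts1Cje replicate 3.

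The partners of fibrillarin in the box C/D particle, the scaffold proteins Nop56 and Nop58, were measured on array A only. Nop56 was at 92.3 in the lowest, 112 in the median and 117 in the highest 2N sample, and at 91.1, 103 and 125 in Ts1Cje. The ranges of the genotypes overlapped almost wholly, and the log2 difference was -0.06 (SE 0.098, 95% interval -0.26 to 0.15). That interval does not hold the -0.47 of Fbl, but the difference between these genes was not tested. Another Nop56 probe set, 162433_f_at, was too dim to be compared. Its intensities lay at or below the floor of 1.47 in 6 of 12 samples, and its highest value was 7.87. Nop58 had a mean of 31.0 ± 7.36 (SD, n = 6) among 2N samples and 29.7 ± 8.18 among those of Ts1Cje. Its log2 difference was -0.07 (SE 0.20). Its interval, -0.49 to 0.35, is wide enough to hold both no difference and a difference as large as that of Fbl. The probe sets 162433_f_at, of Nop56, 92569_f_at, of Nop58, and 92225_f_at, of Polr1b, carry the suffix by which the maker marks probes shared by a sequence family, so their signal may include related transcripts.

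Dyskerin, the pseudouridine synthase of the box H/ACA particles, is encoded by Dkc1, which was measured on array B. Its intensity was 8.47 in the lowest, 9.65 in the median and 11.8 in the highest 2N sample and 9.39, 12.04 and 13.9 in Ts1Cje. Of the Ts1Cje samples 3 lay above all 2N samples. The log2 difference was 0.26 (SE 0.19, 95% interval -0.15 to 0.67), at a signal below the array's median of 16.1. Nolc1, which encodes a chaperone that carries both classes of particle to the nucleolus, had 3 probe sets. On array A 95735_at averaged 42.1 ± 10.3 (SD, n = 6) among 2N samples and 38.8 ± 12.7 among those of Ts1Cje, which gives a log2 difference of -0.15 (SE 0.22). On array B 163281_at differed by 0.10 (SE 0.12) and 116139_at by 0.14 (SE 0.16). The 3 estimates thus have different signs, and each interval holds 0. Among replicates 3 to 6 alone 163281_at was at -0.03.

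Polr1b, which encodes one of the subunits that form the catalytic core of RNA polymerase I, ran from 22.9 to 45.3 in 2N, with a median of 32.8, and from 32.7 to 39.0 in Ts1Cje, with a median of 35.2. All Ts1Cje samples lay within the range of 2N. The log2 difference was 0.13 (SE 0.16, 95% interval -0.21 to 0.46). The SD was 7.97 in 2N and 2.34 in Ts1Cje.

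Urb1 encodes a large nucleolar protein needed for early steps of large subunit assembly, and it is the one member in the trisomic segment. In gene order 4 protein-coding genes lie between Sod1 and Urb1. On array B its probe set 113706_at had an intensity of 9.72 in the lowest, 10.9 in the median and 12.9 in the highest 2N sample and of 11.9, 17.9 and 21.7 in Ts1Cje. All but 1 of the Ts1Cje values exceeded the highest of 2N; replicate 5 fell within the 2N range. The means were 11.1 ± 1.32 and 17.4 ± 3.79 (SD, n = 6). The log2 difference was 0.63 (SE 0.19), or 1.55-fold, with a 95% interval of 0.23 to 1.03 that holds the log2 value of 0.58 that 3 copies in place of 2 would give. It did not pass (limma adjusted p = 0.97). Between replicates 1 and 2 it was 0.97, and between replicates 3 to 6 it was 0.46. When 16 was added ahead of the log2 step, a setting that compresses dim signals, it was 0.30. The other Urb1 probe set, 164994_i_at, was too dim to be compared, at or below the floor of 1.13 in 6 of 12 samples.

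The genes around Urb1 can be set beside it, from other probe sets on the same samples. Synj1, 3 genes further along, had probe sets at 0.67, 0.64 and 0.42 on array B, of which the first passed (adjusted p = 0.016). Paxbp1, 4 genes further along, was at 0.56 on array A and passed (adjusted p = 0.0054). On the side of Sod1, the nearest genes, Mrap and Mis18a, were dim on array A and at 0.86 (SE 0.44) and 0.65 (SE 0.55). Hunk was at 0.29 (SE 0.13) and 2 probe sets of Scaf4 were at 0.55 and 0.53, while a dim one was at -0.42 (SE 0.48). Over all tested probe sets of genes distal to Sod1 other than Urb1 the median log2 difference was 0.51 on array A (38 probe sets, 8 passed) and 0.44 on array B (36 probe sets, 6 passed). The neighbours within 4 genes ran from -0.42 to 0.86 and were chosen after values were seen. That Urb1, at 0.63, lies among them therefore supports nothing. As a check of the genotype labels, Son, another trisomic gene, had 3 probe sets. On array A the brighter one ran from 119.5 to 143 in 2N and from 206 to 267 in Ts1Cje, and on array B the ranges were 18.5 to 26.5 and 33.4 to 43.0, both passing (adjusted p = 1.03e-05 and 0.016). The dimmer one on array A overlapped, at 15.5 to 38.9 and 32.5 to 50.5, and did not pass (adjusted p = 0.92).

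Pum3 encodes an RNA-binding protein of the Puf family that takes part in large subunit processing. It had a probe set on each array, and these differed. On array A 160310_at had an intensity of 63.37 in the lowest, 73.4 in the median and 79.2 in the highest 2N sample and of 42.1, 55.5 and 63.15 in Ts1Cje. All 6 Ts1Cje samples lay below all 2N samples, by a narrow margin and only after normalisation. The deposited intensities overlapped, at 51 to 101.7 in 2N and 30.8 to 75 in Ts1Cje. The means were 73.1 ± 5.96 and 55.1 ± 8.02 (SD, n = 6) and the log2 difference was -0.42 (SE 0.12, 95% interval -0.66 to -0.18), or 0.748-fold. It did not pass (limma adjusted p = 0.78). On array B 107802_at ran from 13.9 to 29.9 in 2N and from 19.5 to 34.3 in Ts1Cje. Its log2 difference was 0.07 (SE 0.19, 95% interval -0.33 to 0.47), and it was below 0 without 2N replicate 2 (-0.08) or Ts1Cje replicate 4 (-0.03). The lower level of Pum3 in Ts1Cje was therefore seen by 1 of its 2 probe sets. The labels do not say whether equal numbers on the arrays stand for the same RNA, and the arrays were normalised apart, so the difference between these estimates was not tested.

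**Figure D3:**
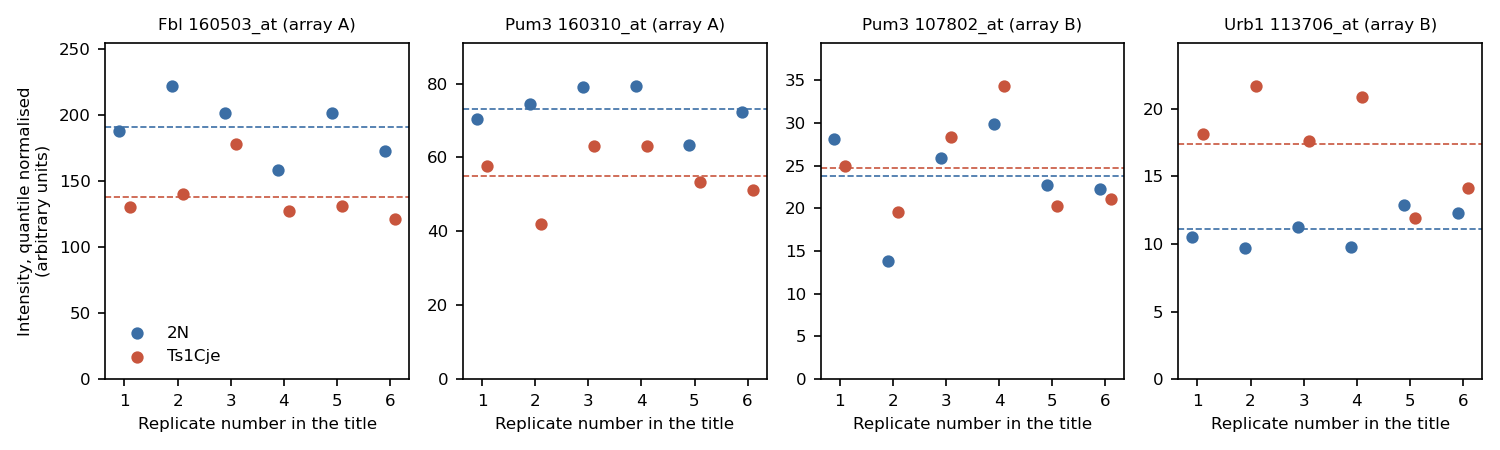
Quantile-normalised intensity (arbitrary units, axis from 0) of Fbl, both Pum3 probe sets and Urb1 by the replicate number in the sample titles; blue is 2N, red is Ts1Cje and dashed lines are group means. Ts1Cje replicate 3 is the high Fbl value at 178, Pum3 is separated on array A but not on array B, and Ts1Cje replicate 5 is the low Urb1 value at 11.9.

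Promoter sequences, from 250 bases before to 50 bases after the annotated start in RefSeq (GRCm38.p6), were given for 8 of the 10 members, all except Fbl and Npm1. They are shown for Urb1 and Pum3, the members at 0.63 and -0.42, and for Nolc1, which shares a motif with Urb1, so that the sequence before a trisomic gene can be read beside that of disomic ones. Each is written on the strand of its gene; capitals mark GGGCGG, the GC box that Sp1 family factors bind, and CCGGAAG, a core bound by ETS factors, on either strand. The hits do not overlap each other.
Urb1, chr16:90810364-90810663, minus strand: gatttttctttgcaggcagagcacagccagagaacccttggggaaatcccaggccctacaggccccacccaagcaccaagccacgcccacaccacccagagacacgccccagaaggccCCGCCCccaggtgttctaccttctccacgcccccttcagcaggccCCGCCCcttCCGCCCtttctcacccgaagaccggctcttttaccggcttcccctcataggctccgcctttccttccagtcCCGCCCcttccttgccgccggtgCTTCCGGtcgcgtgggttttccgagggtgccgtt
Pum3, chr19:27429859-27430158, minus strand: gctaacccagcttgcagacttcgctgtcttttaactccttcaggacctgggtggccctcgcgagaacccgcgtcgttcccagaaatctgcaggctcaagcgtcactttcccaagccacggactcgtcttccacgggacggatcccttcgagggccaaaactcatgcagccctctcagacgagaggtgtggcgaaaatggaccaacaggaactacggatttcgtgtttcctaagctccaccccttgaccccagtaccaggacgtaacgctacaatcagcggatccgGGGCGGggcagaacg
Nolc1, chr19:46075597-46075896, plus strand: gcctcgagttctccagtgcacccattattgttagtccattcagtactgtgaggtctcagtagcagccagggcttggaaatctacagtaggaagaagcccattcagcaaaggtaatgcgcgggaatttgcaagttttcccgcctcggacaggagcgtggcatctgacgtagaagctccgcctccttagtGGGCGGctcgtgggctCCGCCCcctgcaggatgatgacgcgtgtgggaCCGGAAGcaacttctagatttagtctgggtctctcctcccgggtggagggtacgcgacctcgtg
The GC box was present in 7 of the 8 member windows, all but that of Dkc1, and in 35.7% of the 32851 windows of this length. Urb1 had 4 copies, Ncl 3, Nolc1 2 and the other 4 genes 1 each. The ETS core was found in the windows of Urb1 and Nolc1, against 8.86% of all windows. CACGTG, the E-box bound by Myc and its partners, was in none of the 8 and in 7.15% of all windows, which says only that these letters are not in these windows. GC content ran from 45.3% for Nop58 to 69.3% for Ncl, where the median of all windows was 52.7%. A match is a description of the letters only.

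The 2 abundant nucleolar phosphoproteins had the steadiest signals of the set. Ncl, which encodes nucleolin, a protein that binds nascent ribosomal RNA, was at 354 in the lowest, 384 in the median and 395 in the highest 2N sample and at 362, 397 and 452 in Ts1Cje. The log2 difference was 0.08 (SE 0.066, 95% interval -0.05 to 0.22). Npm1, which encodes nucleophosmin, a chaperone for ribosome and histone assembly, was at 310, 342 and 370.5 in 2N and at 293, 321 and 355 in Ts1Cje. Its log2 difference was -0.09 (SE 0.069, 95% interval -0.23 to 0.06). The ranges of the genotypes overlapped for both genes. The SD of the log2 values within genotypes was 0.094 for Ncl and 0.10 for Npm1, where the median of tested probe sets on array A was 0.31. The intervals of both genes end short of -0.47, so a difference of the size of that of Fbl lies outside them.

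**Figure D4:**
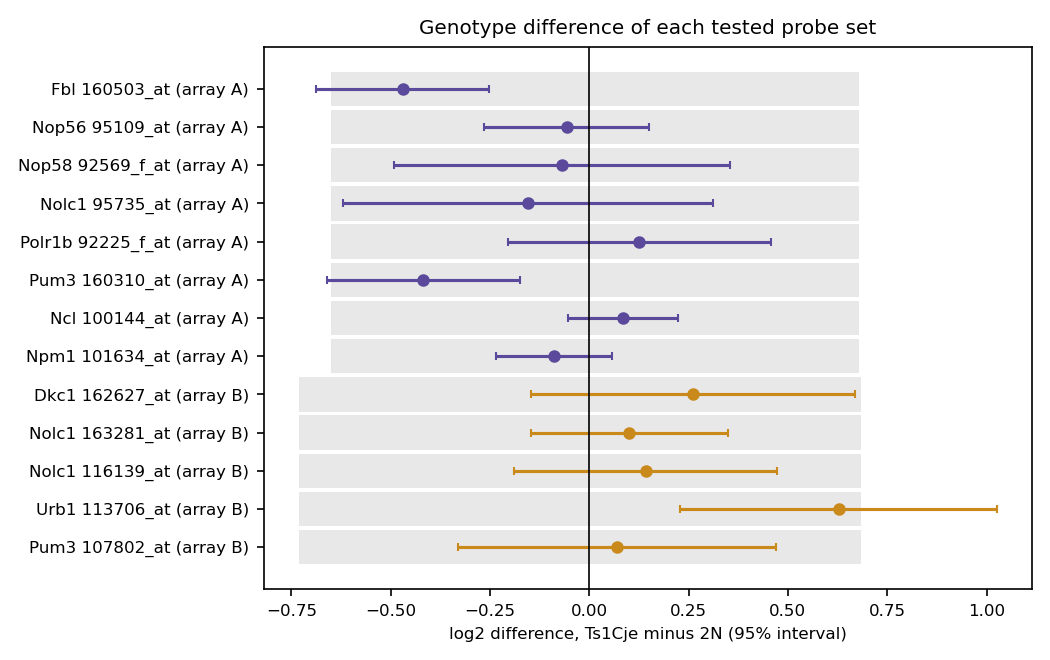
Log2 difference of intensity (Ts1Cje minus 2N) with its 95% interval for each of the 13 tested probe sets, purple for array A and orange for array B; grey bands hold the middle 95% of all tested probe sets of the array. The intervals of Fbl and of Pum3 160310_at lie below 0, that of Urb1 lies above 0, and the other 10 hold 0.

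Across the members, 6 of 8 tested probe sets on array A lay below 0, with a median of -0.08, where 51.1% of all 9316 tested probe sets lay below 0 and their median was -0.0042. On array B 0 of 5 lay below 0, with a median of 0.14, where 50.7% of all 9308 did and the median was -0.0035. Without Urb1, whose copy number differs, the remaining 4 on array B ran from 0.07 to 0.26. Nolc1 and Pum3, the genes measured on both arrays, were below 0 on array A and above 0 on array B.

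The rest of the ribosome biogenesis machinery, with some genes of wider roles, was taken from a list of other genes by role. None of these lies distal to Sod1 on chromosome 16. The list was represented by 120 tested probe sets of 101 genes on array A and 85 of 65 genes on array B. None passed in either direction on either array (limma). An unadjusted p under 0.05 was reached by 2 on array A, both lower in Ts1Cje, and by 0 on array B. On array A 66 of 120 lay below 0 and the median log2 difference was -0.01. On array B 41 of 85 lay below 0 and the median was 0.0025. These medians lie close to those of all tested probe sets.

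By role, box C/D assembly genes lay below 0 for 3 of 6 probe sets on array A, with a median of 0.01. That list also held Nop53, at 0.08, which acts in large subunit processing, and the sign of the median rests on it. Ruvbl2, a helicase of the box C/D assembly machinery, was both the brightest and the lowest in p of the box C/D list. It was at 101 ± 4.76 in 2N and 110.3 ± 7.42 in Ts1Cje (SD, n = 6), with a log2 difference of 0.12 (SE 0.080). Box H/ACA genes lay below 0 for 2 of 4 on array A, with a median of -0.04, and the core protein gene Nop10 was at -0.16 (SE 0.13). Among these 4 was Tcof1, at 0.04, which encodes a factor of ribosomal gene transcription and not a box H/ACA protein. RNA polymerase I genes lay below 0 for 6 of 14 on array A and for 1 of 4 on B, with medians of 0.02 and 0.20. Ubtf, an activator of ribosomal gene transcription, was at -0.10 on array A (SE 0.10) and 0.29 on array B (SE 0.17), and the polymerase subunit gene Znrd1 at -0.29 (SE 0.14, unadjusted p = 0.048, limma adjusted p = 0.99).

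Small subunit processing genes lay below 0 for 17 of 35 probe sets on array A and for 20 of 38 on B, with medians of 0.0049 and -0.0084. Imp3, a protein of the small subunit processome, was at 0.01 (SE 0.094), and Tbl3, of the same particle, at -0.24 on array B (SE 0.12). Another Tbl3 probe set on array B was at -0.25 (SE 0.13), while those on array A were at 0.21 (SE 0.12) and 0.12 (SE 0.16). Large subunit processing genes, the group to which Urb1 and Pum3 belong by function, lay below 0 for 25 of 44 on array A and for 11 of 24 on B, with medians of -0.02 and 0.03. Senp3, a protease that acts on large subunit factors, was at -0.06 (SE 0.082), and the helicase gene Ddx51, at a dim probe set, at -0.61 (SE 0.30). Exosome and trimming genes had medians of -0.10 (7 probe sets, array A) and 0.07 (6, array B), with the exosome subunit gene Exosc5 at 0.08 (SE 0.13) and, by another probe set, -0.10 (SE 0.18), and the exosome helicase gene Mtrex, near the floor on array B, at 0.74 (SE 0.48). Among other nucleolar proteins 8 of 10 lay below 0 on array A, and on array B 7 of 12 did, with medians of -0.12 and -0.04. That list also held Myc, Mycn, Nucks1, Parp1 and Top1, which are not specific to ribosome biogenesis. Its counts are therefore not of ribosome biogenesis genes alone. Mybbp1a, a nucleolar regulator of transcription, ran from 18.2 to 45.1 in 2N and from 11.5 to 33.8 in Ts1Cje, so the genotypes overlapped, with a log2 difference of -0.64 (SE 0.25, unadjusted p = 0.019, limma adjusted p = 0.99). Another probe set of Mybbp1a, with a mean intensity of 12.8, was at -0.58 (SE 0.36). Both carry the family suffix, so the signal of each may include related transcripts. Top1, a topoisomerase, was at -0.0028 (SE 0.11).

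**Figure D5:**
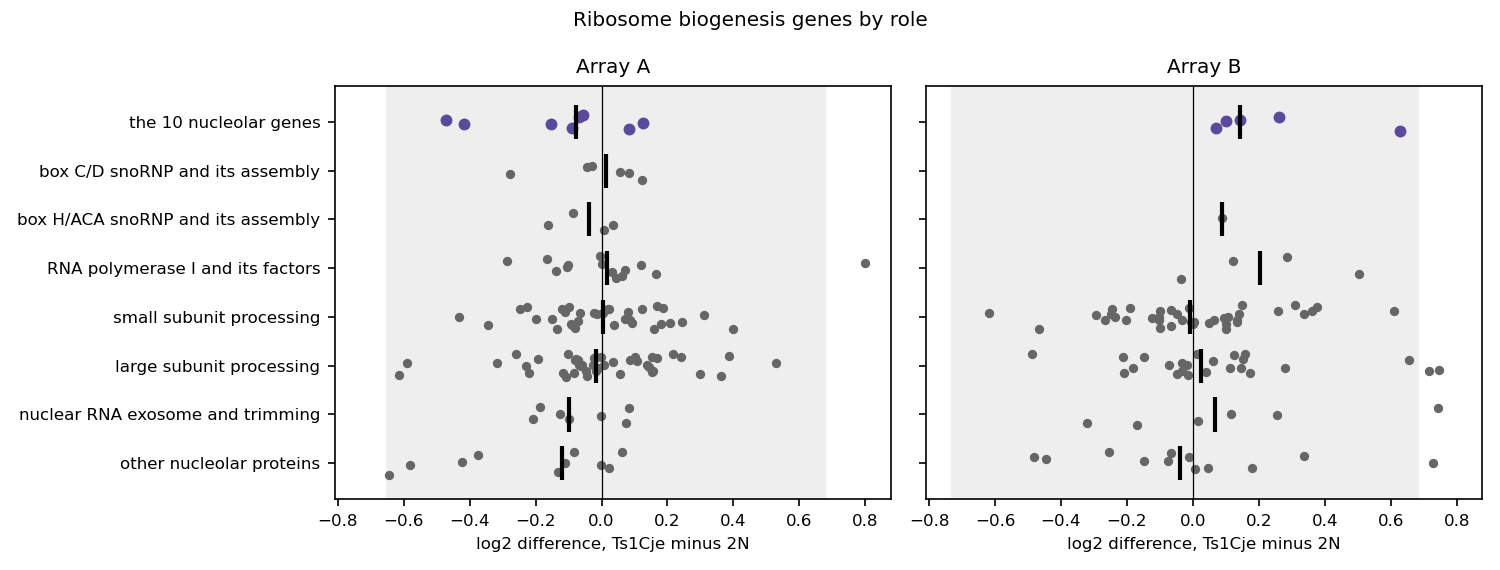
Log2 difference (Ts1Cje minus 2N) of each tested probe set of the 10 nucleolar genes, in purple, and of other ribosome biogenesis genes by role, in grey, on each array; black bars are medians and the grey band holds the middle 95% of all tested probe sets. The role lists centre near 0, with medians between -0.12 and 0.02 for array A, and between -0.04 and 0.20 for array B.

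The genes whose pattern over the 12 samples of array A was most like that of Fbl were sought by the root-mean-square distance between log2 profiles, each centred on its own mean. Of 8376 probe sets naming 1 gene, the nearest was that of Cacna1a, a calcium channel gene, at a distance of 0.16. It was followed by Dynll2, a dynein light chain gene, at 0.16, Fmo1 at 0.17, Plekho1 at 0.17 and the uridine-cytidine kinase gene Uck2 at 0.18. The probe set of Dynll2 carries the family suffix, so its signal may include related transcripts. The median distance was 0.42, and a flat profile would lie at 0.29. None of these 5 is on the ribosome biogenesis list. Pum3 was at 0.23 and ranked 52, and Nop56 was at 0.28 and ranked 485. The other 5 members on array A lay further away than a flat profile, Npm1 barely so: Npm1 was at 0.292, Ncl at 0.33, Polr1b at 0.37, Nop58 at 0.43 and Nolc1 at 0.44. Since genotype is part of every profile, nearness to Fbl includes a lower level in Ts1Cje.

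Markers of the cell types of the tissue were measured beside these genes. The 9 measured neuronal marker genes on array A summed to an intensity of 6856 to 7870 in 2N and 7271 to 8250 in Ts1Cje. No other tissue was measured beside them, so these sums do not test the label of brain. The myelin genes Cnp, Mobp and Mog were too dim on array A to be compared. Of cell cycle markers on array A 16 of 21 probe sets lay below 0 in Ts1Cje, with a median of -0.17, and their summed intensity ran from 708 to 856 in 2N and from 639 to 794 in Ts1Cje. Their median has the sign of the Fbl difference. So do those of the neural progenitor, erythroid, oligodendrocyte and myelin, microglia and choroid plexus markers on array A. The medians of neuronal, astrocyte and endothelial markers there lie above 0. The part of these cell types in the Fbl difference was not tested. Neural progenitor markers lay below 0 for 7 of 11 probe sets, with a median of -0.05 and summed intensities of 365 to 465 and 359 to 452. Erythroid markers lay below 0 for 4 of 4, with a median of -0.38 and summed intensities of 937 to 1513 and 1015 to 1180. Oligodendrocyte and myelin markers lay below 0 for 8 of 9 on array A, with a median of -0.06, and for 3 of 6 on array B, with a median of 0.16. Their summed intensities were 267 to 334 in 2N and 272 to 324 in Ts1Cje on array A, and 87.5 to 130.2 and 115 to 147 on array B. Astrocyte markers lay below 0 for 4 of 12 on array A, microglia markers for 4 of 8, endothelial markers for 3 of 8 and choroid plexus markers for 3 of 6, with medians of 0.02, -0.05, 0.11 and -0.03. On array B the medians were -0.02 for neuronal (8 probe sets), -0.01 for astrocyte (6) and -0.16 for endothelial markers (3, the lowest at -1.07), and the single choroid plexus probe set was at 0.42. None of the marker probe sets passed on either array (limma).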

How the data were processed

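Total RNA of mouse brain was measured on Affymetrix arrays, with 6 samples of 2N and 6 of Ts1Cje on each of 2 array designs. The deposited values were intensities on a linear scale, 1 per probe set and array; for how the authors summarised and scaled them, the sources used here give nothing. After 66 control probe sets per array were left out, each table was quantile normalised, because trimmed means differed between samples, at most 2.10-fold (A) and 1.86-fold (B). Values below the 10th percentile of a table were set to it, before conversion to log2. The lowest 25% by mean over all samples were dropped, which left 9316 and 9308 probe sets for limma (version 3.58.1, R 4.3.3; lmFit, eBayes with a mean-variance trend), Ts1Cje against 2N, with no other term. The Benjamini-Hochberg adjustment ran over each table, and every probe set was kept apart. The pipeline was tested on simulated data.

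Members, lists and marker genes were chosen with earlier results of these data known. Named were all member probe sets, the brightest and the lowest in p of each role list, the 5 profiles nearest to Fbl, and Son. Neighbours of Urb1, those tested within 4 genes on either side, were chosen by gene order after values were seen. Gene names came from the platform annotation, and gene order from RefSeq (GRCm38.p6). Intensities of different probe sets are not compared with each other as levels. The number of arrays limits the precision. Alternatives changed the normalisation, floor, offset, filter, trend, weights and block, and left samples out.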

Additional observations from a re-analysis of the deposited data

Results flagged for a closer look

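The Fbl intensity of Ts1Cje replicate 3, at 178, lay far from the other 5 Ts1Cje samples, of which the nearest was at 139.7. That gap is 0.669 of the range of the group, above the Dixon critical value of 0.625 for 6 samples. Chance alone gives such a gap in about 1 in 20 groups, and the 15 probe sets were examined in both genotypes.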

How the results depend on the processing

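The 13 tested member probe sets were recomputed under 24 other settings, of which 12 left out a sample. Of 312 recomputed differences, 311 moved by less than the SD between replicates. The exception was Urb1 with 16 added before log2, at 0.30. Most of these outcomes were fixed in advance, so nothing is read from the count. Leaving out 1 sample of a group cannot move a difference by that SD. Changes of floor, filter or trend, and terms for replicate numbers, left these differences unchanged. Differences near 0 changed sign under 1 setting for Nolc1 163281_at and under 2 each for Nop58 and for Pum3 on array B. The number of member probe sets that passed on array A was 0 to 1 with a sample left out, the 1 being Fbl without Ts1Cje replicate 3, and 0 under the 12 other settings; on array B it was 0 under all 24. No probe set of the other ribosome biogenesis genes passed under any of the 24. Their median difference moved beyond the spread between samples only without normalisation between arrays, to -0.070 on array A and 0.07 on array B, where the medians of all probe sets moved to -0.06 and 0.05. With the replicate number as a block the count of members that passed stayed 0 on both arrays, and the adjusted p of Fbl was 0.069. Deviations of equally numbered samples of the genotypes correlated at 0.017 to 0.077 on array A and 0.013 to 0.11 on array B. These correlations were weak but all lay above 0, so they do not show that equal numbers are unrelated. Mean correlations with the other numbers were -0.018 to -0.0012 on array A and -0.022 to -0.0022 on array B. Deviations were taken from genotype means, which pushes these below 0 when the former lie above it. The equal number was the best match on both arrays for 1 and 6, on array A only for 5, and on neither for 2, 3 and 4. The labels name no pairs, and the main fit took none. Dim signals limit Dkc1, Urb1 and the second probe sets of Nop56 and Urb1.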
